A study of Saccharomyces cerevisiae with 12 samples.

Results

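The heat shock proteins and cytosolic chaperones described here are 10 genes of budding yeast, Saccharomyces cerevisiae: HSP12, HSP26, HSP42, HSP78, HSP104, SSA1, SSA2, SSA3, SSA4 and HSP82. They were chosen by gene name among the 5449 genes that the array's annotation names. No cut on their values was used, but earlier results of these data were known. Each of the 10 was read by 1 probe set, and all 10 were among the 5345 genes bright enough to be tested. HSP78 acts in mitochondria, and the other 9 products are mainly cytosolic or nuclear.

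RNA came from cells of the BY4741 background grown in the rich medium YPD, on Affymetrix arrays in 4 groups of 3: the gcn5 mutant in Congo Red, the gcn5 mutant untreated, wild type in Congo Red and wild type untreated. Gcn5 is the enzyme that acetylates histones within the SAGA and ADA complexes, which help activate transcription. Congo Red is a dye that binds cell wall polymers and disturbs wall assembly, and it was present at 30 µg/ml for 3 h in one part of a divided culture. The sources used here give neither the mutant allele nor the number of clones. All values are log2 expression, so a difference of 1 is a change of 2-fold, and levels of different genes cannot be set against each other because each probe set has its own brightness. GCN5 itself stood at 3.39 ± 0.33 in gcn5 in Congo Red and 3.72 ± 0.36 in gcn5 untreated, against 8.25 ± 0.05 in wild type in Congo Red and 8.26 ± 0.11 in wild type untreated (SD, n = 3 each), which fits the labels of all 12 arrays.

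Heat shock proteins are molecular chaperones that bind unfolded or aggregated proteins. In yeast their genes are driven mainly by 2 stress systems. Hsf1 binds heat shock elements and controls the Hsp70 and Hsp90 machinery, while Msn2 and its relative Msn4 bind stress response elements and control a general stress program that includes HSP12 and shares targets such as HSP26 and HSP104 with Hsf1. Hsp70 proteins (SSA1 to SSA4) hold and fold clients with the help of J proteins, Hsp104 pulls proteins out of aggregates together with Hsp70, the small heat shock proteins hold unfolded proteins near aggregates, and Hsp90 (HSP82 and HSC82) matures kinases, receptors and other clients with a set of co-chaperones.

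In each group the array numbered 3 lay farthest from its group mean over all genes, with a root mean square deviation of 0.218 to 0.313, against 0.147 to 0.208 on the other 8 arrays. For the members, on wild type untreated array 3, 2 of the 10 members lay above their group mean, with a median deviation of -0.20, and on wild type Congo Red array 3 it was 1 of 10, again with a median of -0.20. On gcn5 Congo Red array 3 the members deviated the other way, with 8 of 10 above the group mean and a median of 0.24, while on gcn5 untreated array 3 it was 5 of 10 and the median was near 0. The arrays numbered 2 of wild type lay high, with 9 of 10 members above the mean in Congo Red (median 0.22) and 10 of 10 untreated (median 0.23). Values without the 4 arrays numbered 3, or without 1 array, are given beside the members they move most. The removal of those 4 arrays was chosen after seeing the data and leaves 2 arrays in each group. Its adjusted p-values from limma are therefore descriptions and no separate tests.

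**Figure D1:**
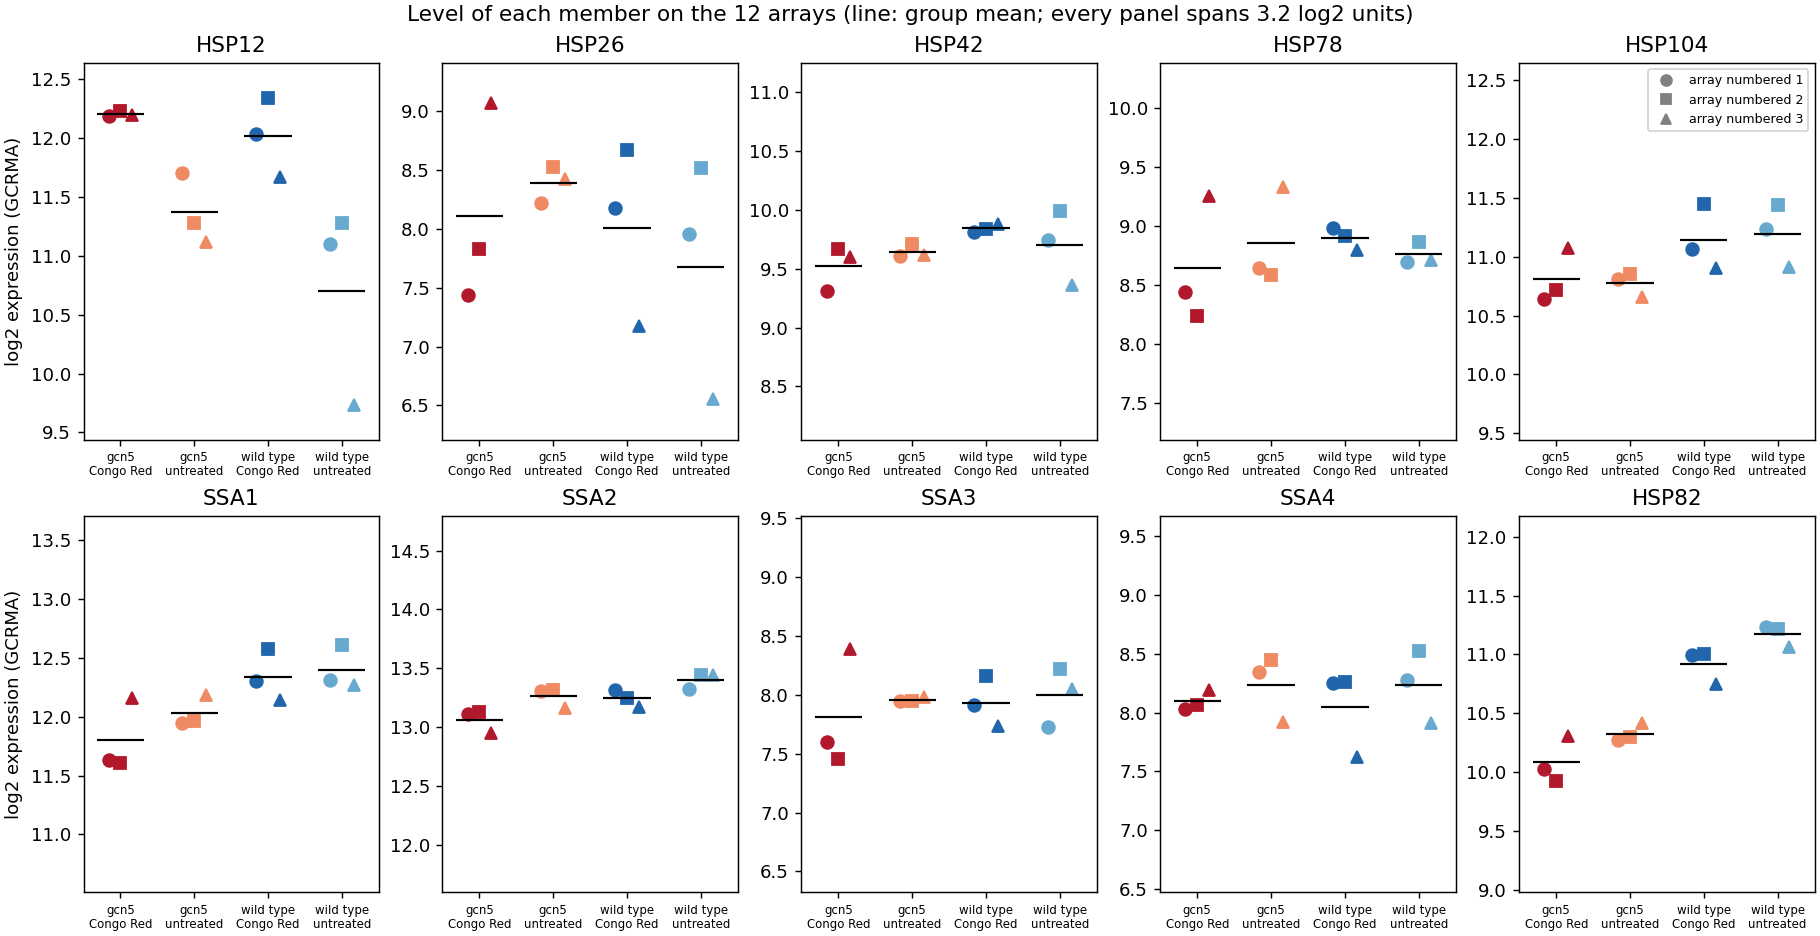
Log2 expression of each of the 10 genes (y axis, GCRMA log2 units, with the same span in each panel) on the 12 arrays, grouped along the x axis by strain and treatment, with marker shapes for array numbers 1, 2 and 3 and a line at each group mean. HSP12 lies higher in Congo Red than untreated in both strains, HSP82 lies lower in gcn5 than in wild type in both conditions, and array 3 lies apart from the other 2 in HSP26 in both wild type groups and in gcn5 in Congo Red, and in HSP12 in untreated wild type.

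HSP12 (YFL014W), which encodes a small membrane-associated stress protein, was the one member that passed the test for Congo Red in wild type. Its level was 12.03, 12.34 and 11.67 on the wild type Congo Red arrays 1, 2 and 3, against 11.10, 11.28 and 9.73 on the untreated arrays. The groups did not overlap, and untreated array 3 lay far below the other 2 untreated arrays. The difference was 1.31 ± 0.34 (SE; 95% interval 0.56 to 2.06), a 2.48-fold rise with an adjusted p of 0.0354. Within the 3 cultures taken by number the difference was 0.93, 1.06 and 1.94, and with the culture as a block the SE fell to 0.19 and the adjusted p to 0.00168. The call was lost without wild type Congo Red array 1 (adjusted p 0.0952) or array 2 (0.125), and it held without the 4 arrays numbered 3. Without wild type untreated array 3 the difference was 0.82 and still passed.

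In the gcn5 mutant HSP12 had 12.19, 12.23 and 12.20 in Congo Red, against 11.70, 11.28 and 11.12 untreated. All 3 treated arrays lay above all 3 untreated ones, and the treated arrays had an SD of 0.02. The difference of 0.84 ± 0.34 (95% interval 0.09 to 1.59), 1.79-fold, had an adjusted p of 0.555 without a block and 0.0454 with the culture as a block. By culture the differences were 0.49, 0.95 and 1.07. The Congo Red difference in gcn5 minus that in wild type was -0.47 ± 0.48, with a 95% interval of -1.53 to 0.59 (adjusted p 0.999). With the culture as a block it was -0.47 ± 0.26, with an interval of -1.08 to 0.13 (adjusted p 0.415). A difference in response between the strains thus passed in neither fit. Between strains HSP12 was higher in gcn5 by 0.66 ± 0.34 untreated (adjusted p 0.256) and by 0.19 ± 0.34 in Congo Red (0.766), neither past the threshold. Without wild type untreated array 3 the untreated strain difference was 0.18.

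HSP26 (YBR072W), a small heat shock protein that forms large assemblies and binds unfolding proteins, varied more between arrays of one group than any other member. Its level was 7.44, 7.83 and 9.07 in gcn5 in Congo Red and 8.22, 8.53 and 8.43 in gcn5 untreated. In wild type it was 8.18, 8.67 and 7.17 in Congo Red and 7.96, 8.52 and 6.55 untreated. Array 3 was the highest of the treated mutant and the lowest of both wild type groups, and all 4 pairs of groups compared overlapped. No comparison passed: the Congo Red difference was -0.28 ± 0.54 in gcn5 and 0.33 ± 0.54 in wild type, and the strain difference was 0.10 ± 0.54 in Congo Red and 0.71 ± 0.54 untreated. Without the 4 arrays numbered 3 the strain difference was -0.79 in Congo Red (adjusted p 0.0676), with the sign turned, and 0.14 untreated (0.768). The Congo Red difference without them was -0.74 in gcn5 and 0.19 in wild type. Its SD within groups, 0.77, was larger than that of 98.7% of the genes tested, whose median was 0.17. The 95% interval of the Congo Red difference ran from -1.46 to 0.91 in gcn5 and from -0.85 to 1.52 in wild type without a block. With the culture as a block it ran from -0.83 to 0.27 in gcn5 and from -0.22 to 0.88 in wild type. The adjusted p values of that limma fit were 0.567 and 0.367. By culture the differences were -0.78, -0.70 and 0.64 in gcn5 and 0.22, 0.16 and 0.62 in wild type. Changes within these intervals were not excluded.

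HSP42 (YDR171W), the small heat shock protein that gathers misfolded proteins into deposits, ranged from 9.31 to 9.99 over the 12 arrays. In Congo Red it had 9.31, 9.67 and 9.60 in gcn5, against 9.81, 9.84 and 9.88 in wild type. These 2 groups did not overlap, but the difference of -0.32 ± 0.15 had an adjusted p of 0.199. The other comparisons of HSP42 overlapped, with differences of -0.12 ± 0.15 for Congo Red in gcn5, 0.14 ± 0.15 for Congo Red in wild type and -0.05 ± 0.15 between the untreated strains.

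Among the disaggregases, HSP104 (YLL026W) encodes the hexameric ATPase that extracts proteins from aggregates and maintains yeast prions. It had 10.64, 10.72 and 11.07 in gcn5 in Congo Red and 10.81, 10.86 and 10.66 in gcn5 untreated. Wild type had 11.07, 11.45 and 10.90 in Congo Red and 11.23, 11.44 and 10.92 untreated. All untreated mutant arrays lay below all untreated wild type arrays, and the strain difference was -0.42 ± 0.17 untreated (95% interval -0.80 to -0.04, adjusted p 0.164) and -0.33 ± 0.17 in Congo Red (0.260). With the array number as a block the untreated difference had an adjusted p of 0.0418 over the 6 arrays compared and 0.0998 over all 12. Without the 4 arrays numbered 3 the difference in Congo Red was -0.58 and passed, with an adjusted p of 0.0331. With 1 array left out it ran from -0.46 to -0.17 and did not pass. The Congo Red difference of HSP104 was 0.04 ± 0.17 in gcn5 and -0.06 ± 0.17 in wild type, and neither passed.

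HSP78 (YDR258C), the mitochondrial relative of HSP104, had 8.44, 8.24 and 9.26 in gcn5 in Congo Red and 8.64, 8.59 and 9.34 in gcn5 untreated. Wild type had 8.98, 8.92 and 8.80 in Congo Red and 8.70, 8.87 and 8.71 untreated. Both mutant arrays numbered 3 lay above every wild type array, and the other 4 mutant arrays lay below every wild type array. None of the 5 comparisons passed, and the strain difference was -0.26 ± 0.25 in Congo Red (adjusted p 0.563) and 0.10 ± 0.25 untreated (0.847). Without the 4 arrays numbered 3 the difference in Congo Red was -0.61 with an adjusted p of 0.0104. That removal takes out the mutant arrays that lay above every wild type array, so the lower value follows from the choice of arrays.

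The 4 SSA genes encode the cytosolic Hsp70 proteins: SSA1 and SSA2 are made in growing cells, and SSA3 and SSA4 are the stress-induced copies. SSA1 and SSA2 are nearly identical in sequence, so their probe sets may share signal and each value is uncertain to that extent. SSA1 (YAL005C) had 11.63, 11.61 and 12.16 in gcn5 in Congo Red, against 12.30, 12.58 and 12.14 in wild type in Congo Red. Untreated it had 11.95, 11.97 and 12.18 in gcn5, against 12.31, 12.61 and 12.27 in wild type. The untreated groups did not overlap, while in Congo Red array 3 of the mutant lay within the wild type range. The strain difference was -0.54 ± 0.17 in Congo Red (95% interval -0.91 to -0.17, adjusted p 0.0654) and -0.36 ± 0.17 untreated (0.212). Without gcn5 Congo Red array 3 the first became -0.72 with an adjusted p of 0.0159, and without all 4 arrays numbered 3 it was -0.82 (0.00669).

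SSA2 (YLL024C) had the smallest spread of the members, with an SD of 0.08 within groups, below that of 92.9% of genes. It read 13.11, 13.13 and 12.95 in gcn5 in Congo Red and 13.31, 13.319 and 13.17 in gcn5 untreated. In wild type it read 13.319, 13.25 and 13.17 in Congo Red and 13.323, 13.44 and 13.44 untreated. In all 4 comparisons of 2 groups the first group named lay wholly below the second (Congo Red below untreated in both strains, gcn5 below wild type in both conditions), with differences between -0.20 and -0.14, a 1.10 to 1.15-fold change, and none passed (adjusted p 0.207 to 0.592). SSA3 (YBL075C) ranged from 7.46 to 8.39 and SSA4 (YER103W) from 7.62 to 8.52, with all 4 pairs of groups compared overlapping for both. Their differences were between -0.14 and -0.04 for SSA3 and between -0.19 and 0.05 for SSA4, each with an SE of 0.21 or 0.22, and none passed. Without the 4 arrays numbered 3 the strain difference in Congo Red was -0.51 for SSA3 (adjusted p 0.0864) and -0.21 for SSA4 (0.239), and the Congo Red difference in gcn5 was -0.42 and -0.35.

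HSP82 (YPL240C), the stress-inducible Hsp90 gene, was the one member that passed between the strains, and it did so in both conditions. It had 10.03, 9.92 and 10.30 in gcn5 in Congo Red, against 10.997, 11.01 and 10.75 in wild type in Congo Red. Untreated it had 10.27, 10.30 and 10.42 in gcn5, against 11.24, 11.22 and 11.06 in wild type. Every mutant array lay below every wild type array, and array 3 of each strain lay closest to the other strain. HSP82 was lower in gcn5 by a log2 difference of -0.83 ± 0.12 in Congo Red (95% interval -1.09 to -0.57, 1.78-fold, adjusted p 0.00132) and -0.85 ± 0.12 untreated (-1.10 to -0.59, 1.80-fold, adjusted p 0.00167). The call held in all 16 alternative settings of each comparison, with values from -1.03 to -0.75 in Congo Red and from -0.94 to -0.81 untreated.

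The Congo Red difference of HSP82 was smaller than its strain difference and did not pass in either strain. It was -0.24 ± 0.12 in gcn5 (adjusted p 0.658) and -0.25 ± 0.12 in wild type (0.237), and with the culture as a block over all 12 arrays the wild type value passed, with an adjusted p of 0.0414, and the mutant value did not (0.127). With the block over the 6 arrays compared neither passed, with an adjusted p of 0.0584 in wild type and 0.200 in gcn5. All 6 cultures showed the lower value in Congo Red: -0.24, -0.37 and -0.11 in gcn5, and -0.24, -0.21 and -0.31 in wild type. The Congo Red difference in gcn5 minus that in wild type was 0.01 ± 0.17, with a 95% interval of -0.35 to 0.38. In bulk RNA, less message per cell and fewer cells that make it cannot be told apart.

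HSC82 (YMR186W) is the constitutive copy of HSP82 and nearly identical to it, so probe sets of the pair may share signal. It read 12.88, 12.74 and 12.74 in gcn5 in Congo Red, against 12.93, 12.80 and 12.86 in wild type in Congo Red. Untreated it read 12.94, 12.92 and 12.92 in gcn5, against 13.08, 12.96 and 13.02 in wild type. The strain difference was -0.08 ± 0.08 in Congo Red (95% interval -0.25 to 0.10, adjusted p 0.584) and -0.09 ± 0.08 untreated (-0.26 to 0.08, 0.521). Neither interval reached the values of HSP82 given above.

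**Figure D2:**
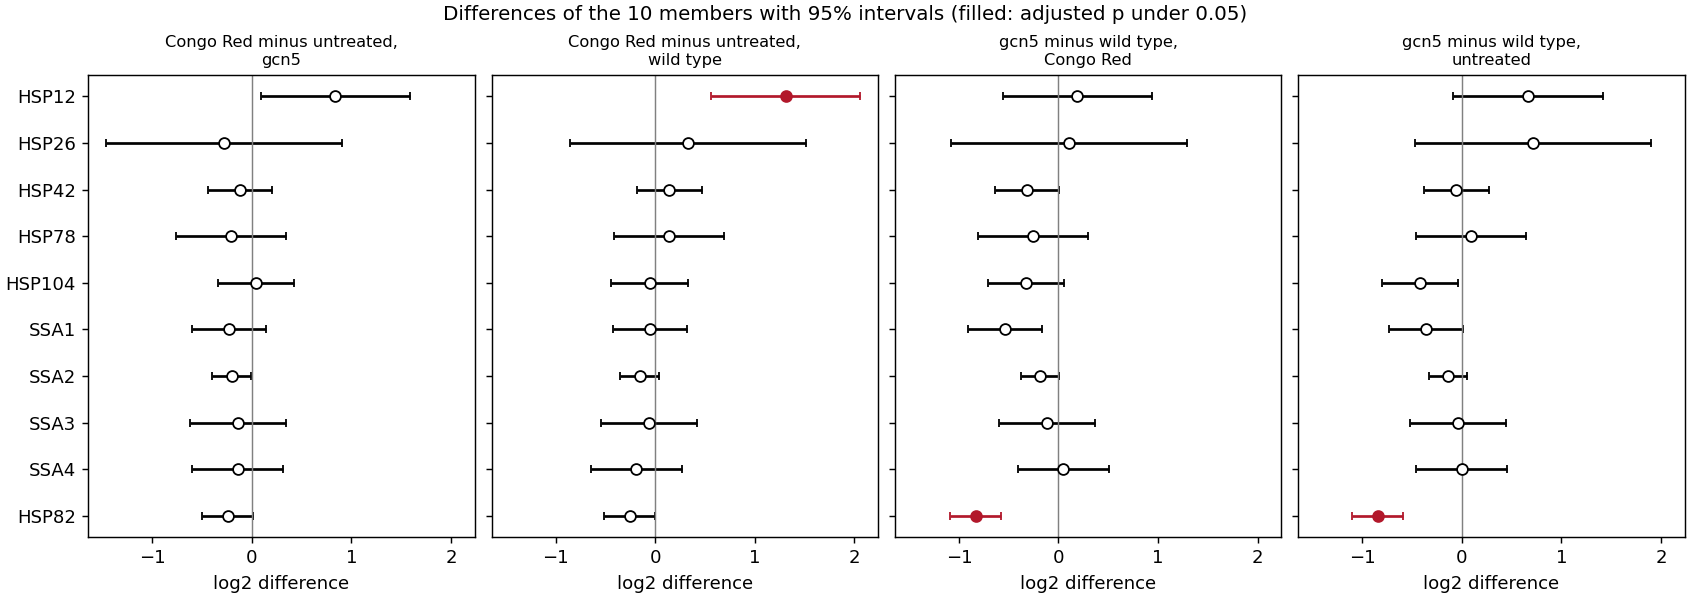
Log2 difference of each of the 10 genes (x axis) with its 95% interval, in 4 panels: Congo Red minus untreated in gcn5 and in wild type, and gcn5 minus wild type in Congo Red and untreated. Filled points have an adjusted p under 0.05: HSP12 for Congo Red in wild type at 1.31, and HSP82 between the strains at -0.83 in Congo Red and -0.85 untreated.

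Counted over the members, 1 of 10 passed for Congo Red in wild type (HSP12, higher), beside 9.24% of all genes tested (285 higher and 209 lower). In gcn5 limma called 0 of 10 for Congo Red, beside 1.16% of all genes. At an unadjusted p under 0.05 there were 2 of 10 (HSP12 and SSA2), beside 433 of 5345 genes. With the culture as a block the counts were 2 of 10 in wild type (HSP12 higher and HSP82 lower), beside 23.8% of genes, and 1 of 10 in gcn5 (HSP12), beside 3.97%. Between the strains 1 of 10 passed in Congo Red (HSP82), beside 11% of all genes, and 1 of 10 untreated (HSP82), beside 9.82% without a block and 19.2% with the array number as a block over all 12 arrays, where it was again HSP82. Here and below, that block fits the same number effects in all groups. The strains' deviations by number were less correlated in Congo Red than untreated. The block has no term for the divided culture, so calls made with it alone are tentative. The interaction of strain and Congo Red called 0 of 10 in limma, beside 0.0561% of all genes. At an unadjusted p under 0.05 there were 0 of 10, beside 310 of 5345 genes. Each of these shares of the members rests on 0 to 2 genes.

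Groups that did not overlap were counted in the same way. For Congo Red in gcn5 there were 2 of 10, HSP12 above and SSA2 below, beside 13.9% of all genes, and in wild type 3 of 10, HSP12 above and SSA2 and HSP82 below, beside 28.6%. Between the strains there were 3 of 10 in Congo Red, HSP42, SSA2 and HSP82, beside 29%, and 4 of 10 untreated, HSP104, SSA1, SSA2 and HSP82, beside 32.4%, all of them lower in gcn5. The 4 comparisons share arrays in pairs, so a value in one is not independent of the next. The median difference over the members was -0.17 for Congo Red in gcn5 and -0.06 in wild type, and -0.22 for gcn5 against wild type in Congo Red and -0.05 untreated, while the median over all genes was -0.03, -0.02, -0.00108 and 0.02 in the same order. Single arrays moved these medians: between the strains they ran from -0.39 (without gcn5 Congo Red array 3) to -0.13 (without gcn5 Congo Red array 2) in Congo Red, and from -0.14 (without wild type untreated array 3) to 0.08 (without wild type untreated array 2) untreated. For Congo Red they ran from -0.27 (without gcn5 Congo Red array 3) to -0.07 (without gcn5 Congo Red array 1) in gcn5, and from -0.17 (without wild type Congo Red array 2) to 0.06 (without wild type untreated array 2) in wild type. The medians between the strains were -0.54 in Congo Red and -0.12 untreated without the 4 arrays numbered 3.

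**Figure D3:**
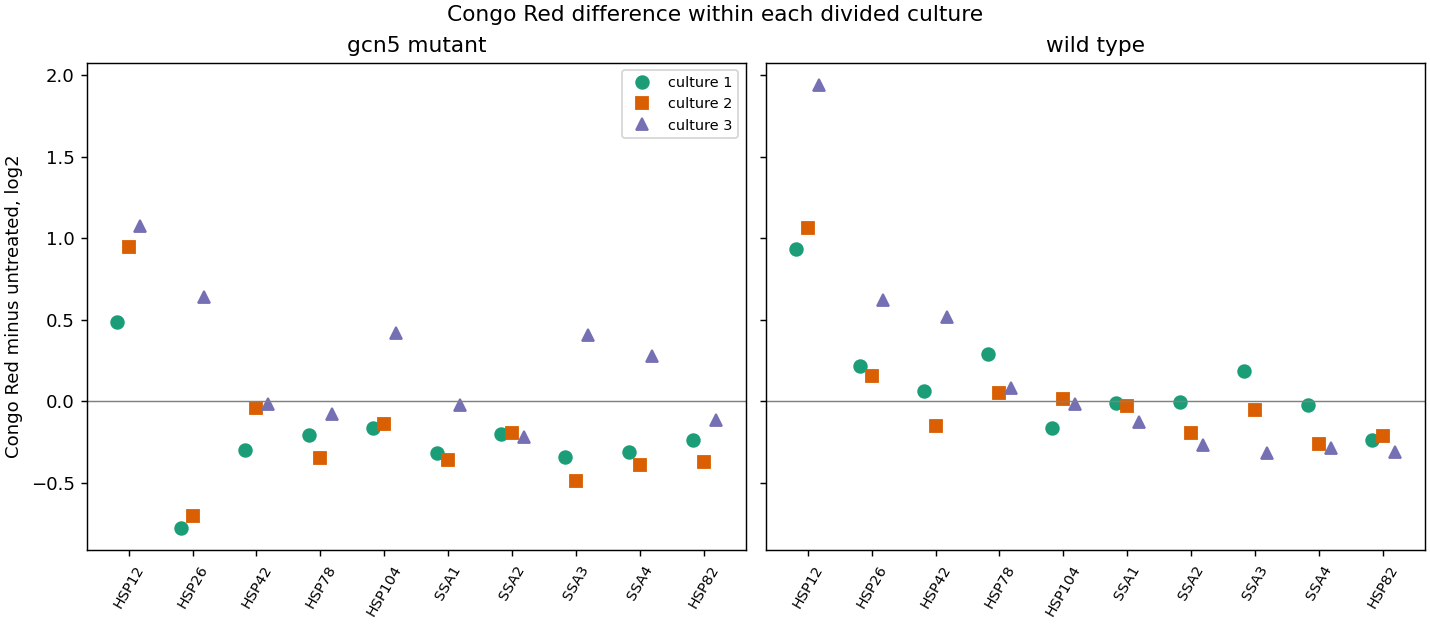
Log2 difference between the Congo Red and the untreated part of each culture, taken by number (y axis), for the 10 genes (x axis), with gcn5 on the left and wild type on the right. HSP12 was positive in all 6 cultures (0.49 to 1.07 in gcn5, 0.93 to 1.94 in wild type) and HSP82 negative in all 6, while HSP26 in gcn5 was -0.78 and -0.70 in cultures 1 and 2 and 0.64 in culture 3.

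Further targets of Hsf1 were measured to set HSP82 beside the genes it is regulated with. Of 13 core Hsf1 targets outside the members, 0 passed for Congo Red in either strain in limma (1 at an unadjusted p under 0.05 in wild type, 0 in gcn5), with medians of -0.09 in gcn5 and -0.13 in wild type. Between the strains 5 of 13 were lower and 0 higher in gcn5 in Congo Red, and again 5 lower and 0 higher untreated, with medians of -0.27 and -0.31. Over all genes tested 6.4% were lower and 4.57% higher in Congo Red, and 4.92% lower and 4.9% higher untreated. BTN2, a sorting factor that carries misfolded proteins to deposits, had 7.99, 7.63 and 8.06 in gcn5 in Congo Red, against 9.35, 9.43 and 8.63 in wild type, a difference of -1.24 ± 0.21 (2.36-fold, adjusted p 0.00387). Untreated BTN2 was lower with a difference of -1.54 ± 0.21 (2.90-fold, adjusted p 0.00161), and its paralog CUR1 was lower with a difference of -0.80 ± 0.09 in Congo Red and -1.001 ± 0.09 untreated. Both kept an adjusted p under 0.05 when any 1 array was left out.

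The other Hsf1 targets that passed changed less. MBF1, a transcriptional coactivator, was lower in gcn5 with a difference of -0.49 ± 0.11 in Congo Red and -0.50 ± 0.11 untreated, and CPR6, an Hsp90-binding prolyl isomerase, with a difference of -0.42 ± 0.08 and -0.36 ± 0.08. HCH1, an Hsp90 activator, was lower untreated with a difference of -0.57 ± 0.11, and MDJ1, the mitochondrial J protein, was lower in Congo Red with a difference of -0.34 ± 0.10. When 1 array was left out in turn, between 3 and 5 of the 13 passed in each condition, and the calls of MBF1 (highest adjusted p 0.0628 untreated, without gcn5 untreated array 2) and MDJ1 (0.169, without wild type Congo Red array 1) were among those lost. Of 6 such fits in each condition MBF1 passed in 3 untreated and 2 in Congo Red, and MDJ1 in 2 in Congo Red. STI1 and YDJ1, co-chaperones of Hsp70 and Hsp90, had -0.38 ± 0.14 and -0.27 ± 0.13 in Congo Red and did not pass.

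Hsp90 partners overlap that list in HSC82, STI1, CPR6, AHA1 and HCH1. Of the 13 genes of the Hsp90 partner list, 0 passed for Congo Red in gcn5 (1 at an unadjusted p under 0.05) and 2 were lower in wild type, CNS1 with a difference of -0.50 ± 0.13 and PPT1 with a difference of -0.44 ± 0.10. CNS1 is an essential partner of Hsp90 and Hsp70, and PPT1 a phosphatase that acts on Hsp90. Of the 6 fits that left out 1 array, CNS1 passed in 1 and PPT1 in 2, with the highest adjusted p, 0.130 and 0.0795, without wild type untreated array 3. With the culture as a block CPR7 joined them at -0.37 ± 0.07. Between the strains CPR6 and TAH1 were lower in gcn5 in Congo Red, and CPR6, HCH1 and TAH1 untreated, TAH1 with a difference of -0.38 ± 0.09 and -0.49 ± 0.09. The calls of CPR6 untreated and TAH1 in Congo Red were lost when single arrays were left out, with adjusted p of up to 0.0797 without wild type untreated array 1 and 0.0816 without wild type Congo Red array 1. With the array number as a block 5 were lower untreated, CPR7 and PPT1 in addition, beside 491 of 5345 genes.

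The genes that work beside the SSA proteins showed few calls. Of 13 cytosolic J proteins and nucleotide exchange factors, 0 passed for Congo Red in either strain (2 at an unadjusted p under 0.05 in wild type, 0 in gcn5). With the culture as a block 2 were lower in wild type, JJJ3 with a difference of -0.62 ± 0.12 and FES1 with a difference of -0.34 ± 0.10. XDJ1, a J protein, was lower in gcn5 with a difference of -0.62 ± 0.14 in Congo Red and -0.70 ± 0.14 untreated, and JJJ3, a J protein of diphthamide synthesis, was higher by 0.87 ± 0.19 in Congo Red. The calls in Congo Red were lost without 1 array, XDJ1 without wild type Congo Red array 1 (adjusted p 0.0640) and JJJ3 without gcn5 Congo Red array 1 (0.0551). Of 7 Hsp70 and Hsp110 relatives, SSE2, the stress-induced Hsp110, was lower in gcn5 in Congo Red with a difference of -0.92 ± 0.22 (1.89-fold, adjusted p 0.0199). Of the 6 fits that left out 1 array SSE2 passed in 2, with the highest adjusted p, 0.0788, without wild type Congo Red array 2. SSE2 and KAR2, the Hsp70 of the endoplasmic reticulum, were higher in Congo Red in wild type with the culture as a block but not without it, by 0.65 ± 0.08 and 0.27 ± 0.07. With the array number as a block SSE2 was also lower in untreated gcn5, with a difference of -0.44 ± 0.09 (adjusted p 0.00790).

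Chaperones outside the Hsp70 and Hsp90 systems gave almost none. Of 14 subunits of the cytosolic chaperonin and prefoldin, limma called 0 in all 5 comparisons, with at most 3 at an unadjusted p under 0.05, while with the array number as a block GIM3 and GIM5 were lower in untreated gcn5 with a difference of -0.36 ± 0.07 and -0.42 ± 0.11. With the culture as a block GIM4 was lower in Congo Red in wild type with a difference of -0.43 ± 0.08. Of 10 mitochondrial chaperones, the one that passed was MDJ1, given above, and with the array number as a block HSP10 was lower in untreated gcn5 with a difference of -0.27 ± 0.08.

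General stress genes were measured as the regulon that HSP12 belongs to. All 22 genes listed for Msn2 and Msn4 outside the members had a positive Congo Red difference in wild type, with a median of 0.46, and 14 of 22 did in gcn5, with a median of 0.05. In wild type 2 passed, NTH1, which encodes neutral trehalase, by 1.06 ± 0.19 (2.08-fold, adjusted p 0.00597) and PNC1, a nicotinamidase, by 0.62 ± 0.14 (1.54-fold, 0.0174). NTH1 kept its call when any 1 array was left out, and the count ranged from 1 to 6 of 22 in those fits. PNC1 passed in 3 of the 6 fits, with an adjusted p of up to 0.0537 without wild type Congo Red array 3. With the culture as a block 13 of 22 were higher in wild type, beside 658 of 5345 genes. Among the 13 were the trehalose synthesis gene TPS2 by 0.57 ± 0.10 and the glycogen gene GSY2 by 0.61 ± 0.09. In gcn5 0 of 22 passed with the block, and 2 had an unadjusted p under 0.05 without it. The interaction was negative for 22 of 22, with a median of -0.37, but limma called 0 of 22, with 4 at an unadjusted p under 0.05. With 1 array left out the wild type median ran from 0.22 (without wild type untreated array 3) to 0.64 (without wild type untreated array 2), and the interaction median from -0.60 (without wild type untreated array 2) to -0.16 (without wild type untreated array 3).

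Between the strains the calls in this list stood as follows. In Congo Red 3 of 22 were lower in gcn5, NTH1 with a difference of -0.70 ± 0.19, PNC1 with a difference of -0.60 ± 0.14 and GRE3 with a difference of -0.44 ± 0.12, with a list median of -0.41. Untreated, 4 of 22 were higher, GDB1 by 0.92 ± 0.18, DCS1 by 0.73 ± 0.20, GLK1 by 0.67 ± 0.16 and OM45 by 0.50 ± 0.14, with a median of 0.01. Of these 7 calls the one that held when any 1 array was left out was GDB1, the glycogen debranching enzyme, and the highest adjusted p of the other 6 ran from 0.0570 (PNC1, without gcn5 Congo Red array 1) to 0.139 (GRE3, without wild type Congo Red array 1). With the array number as a block the glycogen phosphorylase GPH1 was lower in untreated gcn5 with a difference of -1.32 ± 0.38. Without the 4 arrays numbered 3 the counts were 12 lower and 0 higher in Congo Red and 5 lower and 2 higher untreated. In the same fits 799 of 5345 genes were called in Congo Red and 511 untreated, in either direction.

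**Figure D4:**
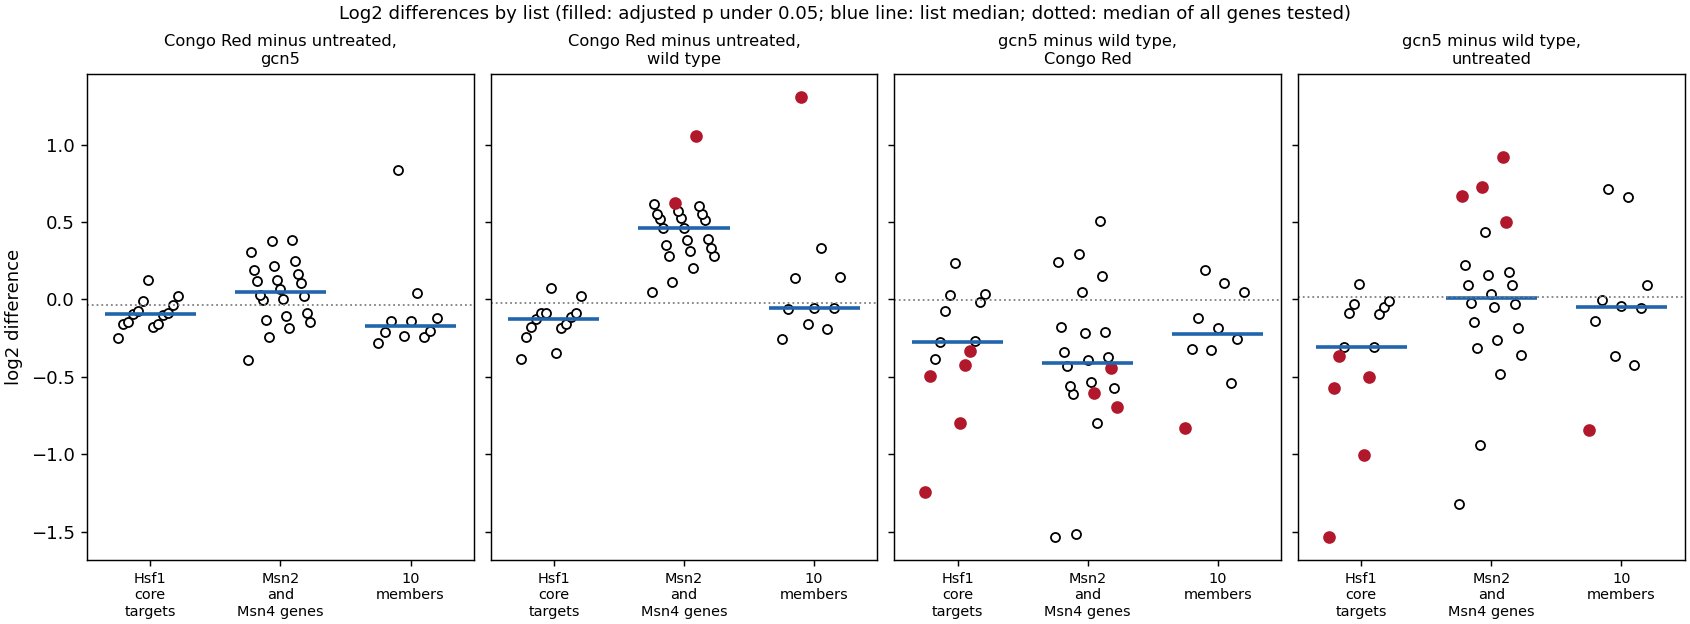
Log2 difference of each gene (y axis) in 3 lists (x axis): 13 core Hsf1 targets outside the members, 22 Msn2 and Msn4 stress genes outside the members and the 10 members, in 4 panels for Congo Red minus untreated in gcn5 and wild type and gcn5 minus wild type in Congo Red and untreated. Filled points have an adjusted p under 0.05, the blue line is the list median and the dotted line the median of all genes tested; the Msn2 and Msn4 list has its highest median, 0.46, for Congo Red in wild type, and the Hsf1 list its lowest, -0.31, between the untreated strains.

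The regulators themselves gave no call. Of 7 (HSF1, MSN2, MSN4, RPN4, YAP1, SKN7 and GAC1), limma called 0 in all 5 comparisons, with 1 at an unadjusted p under 0.05, for Congo Red in wild type. MSN4 had a Congo Red difference of 0.30 ± 0.30 in gcn5 and 0.67 ± 0.30 in wild type, and the second passed with the culture as a block (adjusted p 0.0117). HSF1 had a strain difference of -0.14 ± 0.21 in Congo Red and 0.43 ± 0.21 untreated.

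Of 6 other genes named for heat shock, 4 were analysed. HSP150, which despite its name encodes a secreted cell wall protein, was higher in Congo Red in both strains, by 0.43 ± 0.08 in gcn5 and 0.64 ± 0.08 in wild type (adjusted p 0.0346 and 0.000949). The gcn5 call was lost when single arrays were left out, with an adjusted p of up to 0.183 without gcn5 untreated array 2. HSP31, a glyoxalase-like stress protein, was higher in both strains with the culture as a block but not without it, by 0.39 ± 0.07 in gcn5 and 0.43 ± 0.07 in wild type. SNO4, a close relative of HSP31-family genes whose probe set may share their signal, was higher in gcn5 by 1.73 ± 0.35 in Congo Red and 1.84 ± 0.35 untreated, while its wild type levels of 4.61 ± 0.57 and 4.27 ± 0.56 were near the low end of the scale. The untreated call of SNO4 was lost without the 4 arrays numbered 3 (1.41, adjusted p 0.0530). HSP30, a membrane protein that restrains the plasma membrane proton pump, had a Congo Red difference of -0.68 ± 0.18 in gcn5 (adjusted p 0.173) and -0.41 ± 0.18 in wild type (0.224), and a strain difference of -0.51 ± 0.18 in Congo Red (0.106) and -0.24 ± 0.18 untreated (0.456). When those 4 arrays were left out it passed as lower in Congo Red in gcn5, with a difference of -1.02 (0.0101), and as lower in gcn5 in Congo Red, with a difference of -0.75 (0.00782).

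Cells of another mating type were looked for because BY4741 is an a strain. The 5 markers of a cells were all measured. The log2 of their summed linear signal was taken, in which the brightest probe sets weigh most. It was 11.82 to 12.76 in gcn5 in Congo Red and 11.77 to 12.92 in gcn5 untreated. In wild type it was 13.39 to 14.29 in Congo Red and 13.56 to 14.30 untreated. Gene by gene, the strain differences of the 5 ran from -3.84 to -0.96 in Congo Red, with a median of -1.05. Untreated they ran from -3.60 to -1.05, with a median of -1.10. In gcn5, 3 of 5 were lower past the test in Congo Red and 4 of 5 untreated. With 1 array left out 2 to 4 passed in Congo Red and 2 to 3 untreated, where STE2 passed in 0 of 6 such fits, and with the array number as a block all 5 were lower untreated, with MFA2 in addition. With the culture as a block STE6 was lower in Congo Red in wild type, with a difference of -0.30 ± 0.07. The markers thus moved with the strain difference of HSP82, and their part in it was not tested. Of the 4 alpha cell markers, MF(ALPHA)1 stayed under the log2 floor of 4 on all 12 arrays. The log2 of their summed linear signal, most of it from SAG1, was 8.42 to 8.76 in gcn5 and 8.33 to 8.82 in wild type. In any comparison 0 of the 3 tested passed the threshold, and 0 had an unadjusted p under 0.05.

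The members varied together in part. Over the 12 arrays the 45 pairs of members had a median Pearson correlation of 0.37, from -0.64 for HSP12 with SSA2 to 0.89 for SSA1 with HSP82. After each gene's group means were taken off, the median was 0.49, from -0.68 for HSP78 with SSA2 to 0.93 for HSP26 with HSP104. In these deviations 22 of the 45 pairs were above 0.5 and 9 were negative. All pairs share the same 12 arrays and their cultures, so these values are descriptions. SSA2 had negative correlations with 7 of the other 9 members in the deviations. The remaining negative pairs lay near 0, HSP12 with HSP78 at -0.04 and HSP78 with SSA4 at -0.05. Pairs of other genes were not measured as a background.

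The genes most like each member over the 12 arrays were found by Pearson correlation among all genes tested that are no members. HSP82 was most like MBF1 (0.97), HO (0.97) and SPR6 (0.97), and HSP104 like VHS3 (0.97), YIM1 (0.95) and RMP1 (0.94). SSA1 was most like YPP1 (0.94), YPK9 (0.94) and the co-chaperone gene STI1 (0.93), while SSA2 was most like RPS9B (0.95), a ribosomal protein gene, YOR342C (0.94) and DPB4 (0.93). HSP12 was most like ARO10, MIC26 and ADD37, each 0.93, and HSP26 like YJL163C (0.91), CDA1 (0.91) and YLR177W (0.88). HSP78 was most like NEM1 (0.93), SDS23 (0.92) and PMT3 (0.92), SSA3 like ARG81 (0.93), COG4 (0.93) and CFT2 (0.91), SSA4 like ERS1 (0.93), SSP1 (0.90) and SCS2 (0.89), and HSP42 had the weakest likeness, with GAD1 (0.82), MGR2 (0.79) and SHR5 (0.78).

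Of these genes, HO, SPR6 and MBF1 were lower in gcn5 in both conditions like HSP82: HO with a difference of -1.04 ± 0.17 in Congo Red and -1.55 ± 0.17 untreated, and SPR6 with a difference of -0.55 ± 0.12 and -0.59 ± 0.12. Of the genes most like HSP12, MIC26 and ADD37 were higher in Congo Red in wild type, by 0.48 ± 0.09 and 0.77 ± 0.16. They were picked for their likeness over the same arrays, so these values are no separate evidence.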

How the data were processed

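Values are log2 expression per probe set from Affymetrix yeast arrays, which the authors made with GCRMA, per the submitters' processing notes (no version named in the sources used here). GCRMA equalises the arrays' distributions, so a shift of all transcripts at once would be hidden, and absent transcripts take a low value, not 0. Array medians were 8.98 to 9.05. Detection calls were not used, and precision is limited by how many arrays there are.

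Of 5716 deposited probe sets 5498 had 1 gene symbol, 0 had several and 218 had none, and 12 symbols were updated through the RefSeq gene table. Where a gene had several probe sets (47 genes), the brightest on average was kept. Of 5449 genes, 5345 exceeded log2 4 on at least 3 arrays and were tested. HSP32 and HSP33 were not analysed here, no promoter was searched for motifs, and no coordinates are given because the array's build is not named.

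The test was limma 3.58.1 (R 4.3.3), with a mean for each of 4 groups over 12 arrays (8 residual degrees of freedom), 5 contrasts, moderated variances, and Benjamini-Hochberg adjusted p over 5345 genes, called under 0.05. It was tried on simulated data first. Intervals are 95% and unadjusted. Group and number came from the titles. The sources do not say how far the numbered samples were grown separately, so p-values measure the spread between these samples.

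Whether equal numbers pair arrays was judged from correlated deviations from the group means. Treated and untreated parts of a strain, divided cultures per the labels' protocols, gave 0.84, 0.57 and 0.79 in gcn5 and 0.53, 0.74 and 0.67 in wild type. The untreated strains gave 0.53, 0.39 and 0.44. The strains in Congo Red gave 0.33, -0.08 and 0.11, so a block by number was not relied on there. Such low values cannot show that the numbers are unpaired. The sources do not say how numbers relate across strains. For the other comparisons blocked values, over all 12 arrays unless stated, are printed for some members, for genes whose call they change, or as counts for the stress genes. For the untreated strains that block shared its number effects with the Congo Red arrays, where the strains' deviations by number were less correlated. The block had no term for the culture, so the calls it adds are tentative.

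The members, the pathway lists and the rule for named genes were chosen with earlier results of these data known. The rule names the members, list genes that passed or had the smallest p, the 3 genes most like each member, and GCN5. Alternatives were a block, no filter or one at log2 6, median centring, only the arrays compared, a floor at 4, the mean of probe sets, a robust fit with a variance trend, and each array left out. The block over 12 arrays and the removal of the 4 arrays numbered 3 were added after seeing the data.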

Additional observations from a re-analysis of the deposited data

Results flagged for a closer look

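For HSP78 the Congo Red difference was negative in all 3 gcn5 cultures (-0.20, -0.35 and -0.08, mean -0.21) and positive in all 3 wild type cultures (0.29, 0.05 and 0.08, mean 0.14). Every sample of one strain thus moved opposite to every sample of the other. The difference between the strains' responses was -0.35 ± 0.36 (SE), with an adjusted p of 0.999 from limma without a block and 0.210 with the culture as a block (unadjusted 0.0164), so it did not pass. HSP78 was singled out among 10 genes for this sign pattern.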

How the results depend on the processing

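Over the 10 members, 5 comparisons and all alternatives, 840 values were recomputed: 775 kept sign and call, 52 changed sign without a call in either fit, 4 calls were lost, 9 were gained, and 0 calls changed direction. These counts include settings that could not change a member's difference: no filter, the filter at log2 6, the floor at 4 and the mean of probe sets. Each member had 1 probe set and lay above log2 6 on every array. For Congo Red in gcn5 the count of members called was 1 with either replicate block (HSP12) and 0 with any single array left out. In wild type it was 0 with only the arrays compared (HSP12 adjusted p 0.0965) and with the variance trend (0.0503), 2 with the replicate block over 12 arrays, and 0 to 1 with single arrays left out. For gcn5 against wild type in Congo Red the count was 2 with the variance trend (SSA1, 0.0467). With single arrays left out it was 1 to 2, and without all arrays numbered 3 it was 4 (HSP78, HSP104, SSA1 and HSP82). Over all 5345 genes the count rose as well, from 586 to 799 without those arrays. Untreated the count of members was 2 with the replicate block over the 6 arrays compared (HSP104) and 1 with any single array left out. For the interaction it was 0 in every setting. Apart from these, neither block changed a member's call. Only arrays compared means fewer samples for the spread; the other causes were not tested.

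Counts over all 5345 genes moved more. With the replicate block over 12 arrays, and over the arrays compared, they were 212 and 148 for Congo Red in gcn5 (62 without a block), 1272 and 1204 in wild type (494), 1048 and 252 between strains in Congo Red (586), 1024 and 881 untreated (525), and 30 for the interaction (3), where all arrays are compared. With only the arrays compared they were 15 for Congo Red in gcn5 and 316 between strains in Congo Red. With single arrays left out they ran from 17 to 56 for Congo Red in gcn5, 260 to 428 in wild type, 350 to 485 between strains in Congo Red, 265 to 389 untreated and 3 to 5 for the interaction, which had 6 with the variance trend and 13 without the arrays numbered 3.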
